A study of Mus musculus with 7 samples.

Results

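The 10 genes described here are those by which enteroendocrine cells of the gut are recognised: the lineage factors Neurog3 and Neurod1, the granule proteins Chga and Chgb, the serotonin enzyme Tph1, the L cell hormones Pyy, Gcg and Insl5, and the hormones Sst and Cck. They were listed by name, with earlier results of these data known, and each matched exactly 1 of the 43346 genes in the table. Gene expression was measured by RNA-seq of polyadenylated RNA in 7 whole colon tumors of mice labelled C57BL6/J, each tumor being 1 library. Recipients were lethally irradiated WT mice, congenic CD45.1 per the study's methods, that had received a bone marrow (BM) transplant, at 8 weeks per the labels while the study's methods give another age, and then a colitis-associated cancer protocol of 1 injection of the mutagen azoxymethane (AOM, 10 mg/kg) followed by 3 cycles of 3% dextran sulfate sodium (DSS) in the drinking water, 1 week on and 2 weeks off. In 4 tumors the graft was Dnmt3a+/Δ, which the labels write Dnmt3a(+/-), that is, heterozygous for deletion of a DNA methyltransferase gene, and in 3 control tumors it was Dnmt3a+/+.

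Both kinds of donor carried Mx1-Cre, a recombinase transgene driven by an interferon-inducible promoter, and both were given poly(I:C) to switch it on. The deletion was therefore in the grafted blood cells, while the tumor epithelium, enteroendocrine cells included, was WT in all 7 tumors. Tumors are named below by the genotype of the graft and their number, control tumors 1 to 3 and Dnmt3a+/Δ tumors 1 to 4. The tumors came from 2 transplantation experiments: BMT18 gave control tumors 1 and 2 and Dnmt3a+/Δ tumors 1 and 2, and BMT8 gave control tumor 3 and Dnmt3a+/Δ tumors 3 and 4. With 1 control tumor in BMT8, the spread of controls within that experiment could not be estimated.

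Enteroendocrine cells are scattered hormone-secreting cells of the intestinal epithelium. They arise from crypt stem cells through a short burst of Neurog3, a basic helix-loop-helix factor, and then switch on Neurod1 and the machinery of secretory granules. In the colon the main kinds are enterochromaffin cells, which make serotonin with tryptophan hydroxylase 1 (Tph1), L cells, which make peptide YY (Pyy), proglucagon products such as GLP-1 (Gcg) and, in the distal gut, insulin-like peptide 5 (Insl5), and D cells, which make somatostatin (Sst). Cholecystokinin (Cck) belongs mainly to the small intestine. The chromogranins Chga and Chgb are proteins of the granule core and are shared by most of these cells.

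The promoters of these genes were searched for 3 short motifs. In the 250 bases before the RefSeq start of each gene (GRCm38.p6), TGACGT, part of the cyclic AMP response element, was found on either strand for Chga, Chgb and Sst, 3 of 10, against 6.47% of 32851 promoter windows of the same length. An E-box, CAGATG, was found for Gcg, Insl5 and Cck, and 14.4% of all windows held it. A TATA sequence, TATAAA, was found for Gcg and Insl5, and 12.4% of all windows held it. 3 promoters are shown here because their genes parted from one another among the tumors: Chga as the general marker, and Gcg and Pyy as 2 hormones of the L cell. Capitals mark the matches to these motifs on either strand, all sequences run 5′ to 3′ on the strand of the gene, and no motif was matched in the Pyy window.
Chga, chr12:102554691-102554940, plus strand: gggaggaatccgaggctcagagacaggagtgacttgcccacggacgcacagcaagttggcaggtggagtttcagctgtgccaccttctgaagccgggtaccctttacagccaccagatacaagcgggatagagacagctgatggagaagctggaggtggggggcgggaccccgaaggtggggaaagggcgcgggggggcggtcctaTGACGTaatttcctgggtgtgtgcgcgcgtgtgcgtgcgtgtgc
Gcg, chr2:62483654-62483903, minus strand: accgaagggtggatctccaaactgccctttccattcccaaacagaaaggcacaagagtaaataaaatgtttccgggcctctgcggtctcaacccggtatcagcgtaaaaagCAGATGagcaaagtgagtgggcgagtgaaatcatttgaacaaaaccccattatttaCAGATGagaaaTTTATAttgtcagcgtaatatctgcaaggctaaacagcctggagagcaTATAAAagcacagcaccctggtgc
Pyy, chr11:102107833-102108082, minus strand: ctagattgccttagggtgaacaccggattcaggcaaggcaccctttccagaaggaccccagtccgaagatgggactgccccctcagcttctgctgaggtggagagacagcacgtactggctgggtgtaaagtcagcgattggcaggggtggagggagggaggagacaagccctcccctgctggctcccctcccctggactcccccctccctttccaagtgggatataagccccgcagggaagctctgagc

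The table held 38472738 to 64314999 estimated counts per tumor. Of its genes, 18994 were at 0 in every tumor and 15810 had enough counts to be tested. Values are given as CPM, counts scaled to the size of the library by the trimmed mean of M values (TMM), and comparisons between genes as TPM, which is also scaled to gene length. Dnmt3a itself was at 24.3, 23.1 and 20.3 CPM in control tumors 1 to 3 and at 27.8, 43.0, 28.3 and 22.0 CPM in Dnmt3a+/Δ tumors 1 to 4, a log2 difference of 0.43 ± 0.24 (SE) with an adjusted p of 0.542 by edgeR. Whole tumors hold mostly cells without the deletion, and reads were summed over the whole gene, so this value is no check of the graft's genotype. Nothing in the labels ties 2 tumors to 1 mouse, and the numbers they give the tumors differ within each experiment. They do not say outright that each tumor came from its own mouse. The study's description of its supplementary tables speaks of as many mice as tumors, with the sizes of the 2 groups exchanged. The p-values here measure the spread between these tumors.

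All 10 genes were detected in every tumor, and per unit of length the L cell hormones and granule proteins led. Pyy was the highest at 142 ± 80.4 TPM (SD, n = 7), followed by Insl5 at 39.8 ± 25.4 TPM, Chgb at 32.2 ± 19.1 TPM and Chga at 15.2 ± 6.84 TPM. Gcg was at 8.11 ± 5.51 TPM and Sst at 3.10 ± 2.02 TPM. The other 4 were low: Cck was at 1.16 ± 0.730 TPM, Tph1 at 0.831 ± 0.653 TPM, Neurod1 at 0.520 ± 0.264 TPM and Neurog3 at 0.264 ± 0.192 TPM, the last being the factor that is on only briefly. Neighbours in this order differed by more than the larger of their SDs only between Pyy and Insl5 and between Chga and Gcg. Since a bulk tumor was measured, fewer cells of a type and less RNA per cell cannot be told apart at any of these values.

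**Figure D1:**
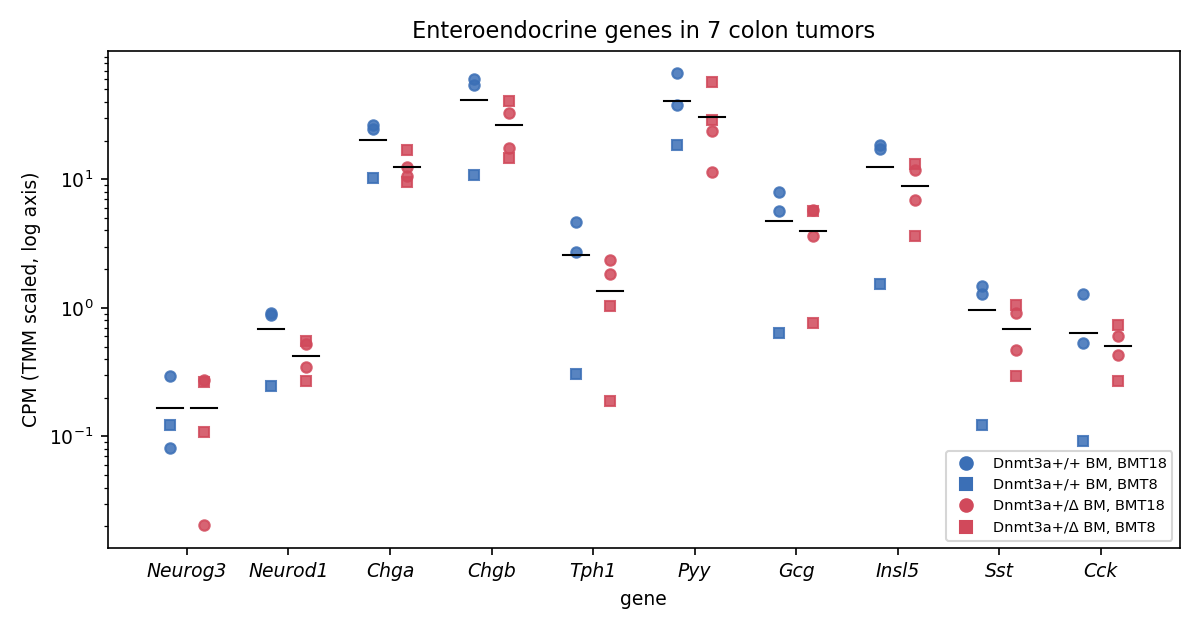
Level of each of the 10 enteroendocrine genes in each tumor, in CPM scaled by TMM on a log axis, with circles for BMT18, squares for BMT8, blue for Dnmt3a+/+ BM, red for Dnmt3a+/Δ BM and a black bar for each group's mean. The groups overlap for every gene, and the blue square, control tumor 3, is the lowest control tumor for every gene but Neurog3.

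No enteroendocrine gene passed the test between the Dnmt3a+/Δ and the control tumors. By edgeR's quasi-likelihood test 0 of the 10 were called at an adjusted p under 0.05 with a log2 fold change over 1 in either direction, where 0 of 15810 genes (0%) were called. DESeq2 also called 0 of the 10, against 299 genes, 1.24% of those it gave a p-value. At an unadjusted p under 0.05 the count was again 0 of 10, against 11% of all tested genes. The fitted difference was below 0 for all 10, with a median of -0.49 on the log2 scale, where 49.8% of all genes tested were below 0 and their median was 0.0025. With the experiment as a covariate, 6 of the 10 were below 0 and the median was -0.13. Leaving out control tumor 2 moved the median to -0.19, and leaving out control tumor 3 moved it to -1.003. Other epithelial lists were also low. Below 0 were 11 of 12 colon epithelium markers (median -0.57), 7 of 8 colonocyte markers (-0.82) and all 7 goblet markers (-0.91). Scaled to the colon epithelium markers, the median of the 10 enteroendocrine genes was -0.13, and that of all genes was 0.48. The 10 enteroendocrine genes are not 10 observations of the difference. They were read in the same 7 libraries, and most of them were high and low in the same tumors. Every interval of the difference was wide: the narrowest, that of Chga, ran from -1.55 to 0.13.

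Neurog3 (chr10:62133090-62134763, plus strand, GRCm38), the factor that commits a progenitor to the enteroendocrine fate, was near the limit of detection. It was at 0.0806, 0.297 and 0.122 CPM in control tumors 1 to 3 and at 0.275, 0.0204, 0.264 and 0.108 CPM in Dnmt3a+/Δ tumors 1 to 4. The groups overlapped over most of their range, and the lowest value, that of Dnmt3a+/Δ tumor 2, rested on a single count. The log2 difference, Dnmt3a+/Δ minus control, was -0.05 ± 0.83 (SE), with an adjusted p of 0.991 by edgeR. Neurog3 shares part of its locus with Fam241b on the other strand, and the library kit kept strand.

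Neurod1 (chr2:79452521-79456751, minus strand, GRCm38), which acts just after Neurog3 and stays on in mature cells, was at 0.887, 0.906 and 0.245 CPM in control tumors 1 to 3 and at 0.524, 0.346, 0.548 and 0.270 CPM in Dnmt3a+/Δ tumors 1 to 4. Control tumors 1 and 2 were the highest of all 7 and control tumor 3 the lowest. Between the groups the log2 difference was -0.69 ± 0.56, with an adjusted p of 0.673 by edgeR. Its counts ran from 8 to 58, and its locus overlaps Cerkl and Gm26755, 1 of them on the same strand, so that some reads could have been assigned to a neighbour.

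Chga (chr12:102554969-102565028, plus strand, GRCm38), the most widely used enteroendocrine marker, was at 24.4, 26.4 and 10.2 CPM in control tumors 1 to 3 and at 12.5, 10.6, 16.98 and 9.57 CPM in Dnmt3a+/Δ tumors 1 to 4. Control tumors 1 and 2 stood above all Dnmt3a+/Δ tumors, and control tumor 3 lay among the 3 lowest values. On the log2 scale the difference was -0.71 ± 0.36, with an unadjusted p of 0.0852 and an adjusted p of 0.509 by edgeR, the lowest p of the 10 genes.

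Chgb (chr2:132781278-132795079, plus strand, GRCm38), its partner in the granule core, was at 53.7, 60.6 and 10.8 CPM in control tumors 1 to 3 and at 33.1, 17.5, 40.7 and 14.5 CPM in Dnmt3a+/Δ tumors 1 to 4. The order was like that of Chga, with control tumors 1 and 2 on top and control tumor 3 at the bottom. The log2 difference was -0.66 ± 0.59, with an adjusted p of 0.712 by edgeR. Chgb varied more than Chga, 5.63-fold from the lowest to the highest tumor against 2.76-fold, and the count ratio of Chgb to Chga ran from 1.06 in control tumor 3 to 2.65 in Dnmt3a+/Δ tumor 1.

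Tph1 (chr7:46644641-46672537, minus strand, GRCm38), the first enzyme of serotonin synthesis in enterochromaffin cells, was at 4.68, 2.72 and 0.306 CPM in control tumors 1 to 3 and at 1.85, 2.36, 1.04 and 0.189 CPM in Dnmt3a+/Δ tumors 1 to 4. All 3 tumors of BMT8 were below all 4 of BMT18, whatever the graft. The share of all genes that part by experiment in this way was not computed. Between the experiments, 19.4% of all genes tested had an unadjusted p under 0.05 by edgeR. The range was 24.7-fold, the widest of the 10 genes. The log2 difference between grafts was -0.92 ± 0.96, with an adjusted p of 0.767 by edgeR. Mast cells also express Tph1. Their summed markers were at 56.3, 34.0 and 23.4 CPM in control tumors 1 to 3 and at 21.8, 156, 48.7 and 17.5 CPM in Dnmt3a+/Δ tumors 1 to 4. Among the Dnmt3a+/Δ tumors, tumor 2 was the highest and tumor 4 the lowest for both. Tumor 1 had more Tph1 than tumor 3 with a lower mast cell sum. The highest Tph1 of all was in control tumor 1, not in the tumor with the highest mast cell sum. The part of mast cells in the Tph1 level was not tested.

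Pyy (chr11:102106676-102107832, minus strand, GRCm38), the L cell hormone that slows transit and appetite, was at 37.8, 66.7 and 18.5 CPM in control tumors 1 to 3 and at 23.9, 11.5, 28.9 and 57.0 CPM in Dnmt3a+/Δ tumors 1 to 4. Unlike most of the other genes, it was high in Dnmt3a+/Δ tumor 4, second only to control tumor 2, and lowest in Dnmt3a+/Δ tumor 2. Between the groups the log2 difference was -0.44 ± 0.57, with an adjusted p of 0.824 by edgeR.

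Gcg (chr2:62474530-62483650, minus strand, GRCm38), from which L cells cut the incretin GLP-1, was at 5.67, 7.99 and 0.642 CPM in control tumors 1 to 3 and at 3.59, 5.79, 5.63 and 0.757 CPM in Dnmt3a+/Δ tumors 1 to 4. Control tumor 3 and Dnmt3a+/Δ tumor 4 were low and close to each other, and the other 5 tumors lay well above them. On the log2 scale the difference was -0.28 ± 0.87, with an adjusted p of 0.94 by edgeR.

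Insl5 (chr4:103017872-103026842, minus strand, GRCm38), the hormone of distal L cells, was at 17.3, 18.6 and 1.53 CPM in control tumors 1 to 3 and at 6.94, 11.7, 13.1 and 3.65 CPM in Dnmt3a+/Δ tumors 1 to 4. It followed Gcg, with the same pair of tumors at the bottom and control tumors 1 and 2 at the top. The log2 difference was -0.49 ± 0.77, with an adjusted p of 0.858 by edgeR.

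Sst (chr16:23889573-23890958, minus strand, GRCm38), the hormone by which D cells restrain other endocrine cells, was at 1.29, 1.48 and 0.122 CPM in control tumors 1 to 3 and at 0.474, 0.917, 1.06 and 0.297 CPM in Dnmt3a+/Δ tumors 1 to 4. Control tumors 1 and 2 were again the highest, control tumor 3 the lowest and Dnmt3a+/Δ tumor 4 next to it, and the value of control tumor 3 rested on 4 counts. Between the groups the log2 difference was -0.49 ± 0.80, with an adjusted p of 0.864 by edgeR.

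Cck (chr9:121489824-121495694, minus strand, GRCm38), a hormone of the upper gut that triggers gall bladder and pancreatic secretion, was at 1.29, 0.531 and 0.0918 CPM in control tumors 1 to 3 and at 0.599, 0.428, 0.731 and 0.270 CPM in Dnmt3a+/Δ tumors 1 to 4. The highest and the lowest value were both in control tumors, and the 4 Dnmt3a+/Δ tumors lay between them. On the log2 scale the difference was -0.33 ± 0.77, with an adjusted p of 0.918 by edgeR.

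The low values of the enteroendocrine genes gathered in 2 tumors, 1 of each group. Control tumor 3 was below the gene's mean over the 7 tumors for 10 of 10 genes, with a median deviation of -1.60 on the log2 scale, and was the lowest tumor for 6. Dnmt3a+/Δ tumor 4 was below the mean for 9 of 10, all but Pyy, with a median deviation of -0.83. Control tumor 2 was the highest for 8 genes and control tumor 1 for the other 2, Tph1 and Cck. Dnmt3a+/Δ tumors 1, 2 and 3 lay closer to the mean, with median deviations of 0.17, -0.25 and 0.60. Over all genes tested, the median deviation of each of the 7 tumors lay between -0.016 and 0.037, a value that the TMM scaling holds near 0. For 8 of the 10 genes the lowest pair of tumors was control tumor 3 and Dnmt3a+/Δ tumor 4, which was so for 12.7% of all genes tested. The exceptions were Neurog3 and Pyy. This pair was picked from the values of these same genes, which were read in the same 7 libraries. The 8 of 10 therefore describes them and is not a test.

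**Figure D2:**
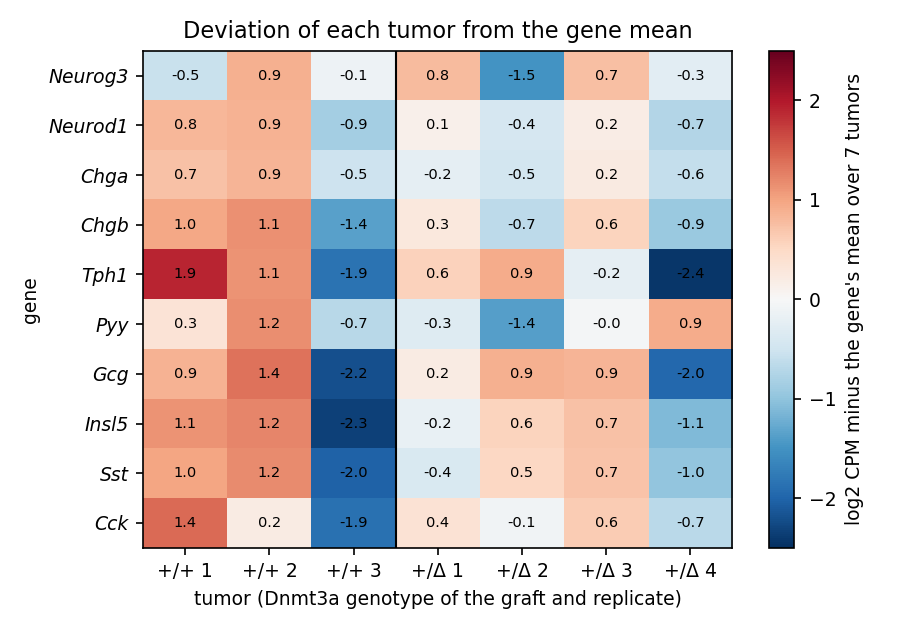
Log2 CPM of each enteroendocrine gene (rows) in each tumor (columns) minus the gene's mean over the 7 tumors, with red for above and blue for below the mean. The column of control tumor 3 is below 0 throughout, that of Dnmt3a+/Δ tumor 4 is blue but for Pyy, and that of control tumor 2 is above 0 throughout.

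Most of these genes also varied more among the tumors than genes of like level. The SD of log2 CPM was 0.98 for Chgb and 0.89 for Pyy, each above that of 96.2% of the 500 tested genes nearest in mean level. Insl5 with an SD of 1.31 exceeded 93.4% of its neighbours, Tph1 with 1.61 exceeded 90.6% and Gcg with 1.46 exceeded 89.6%. The lineage factors did not stand out: Neurog3 with 0.88 exceeded 35.4% and Neurod1 with 0.70 exceeded 37.4%, both at counts where sampling error is large. Chga, Sst and Cck lay between, at 78.4%, 78% and 70.2%.

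**Figure D3:**
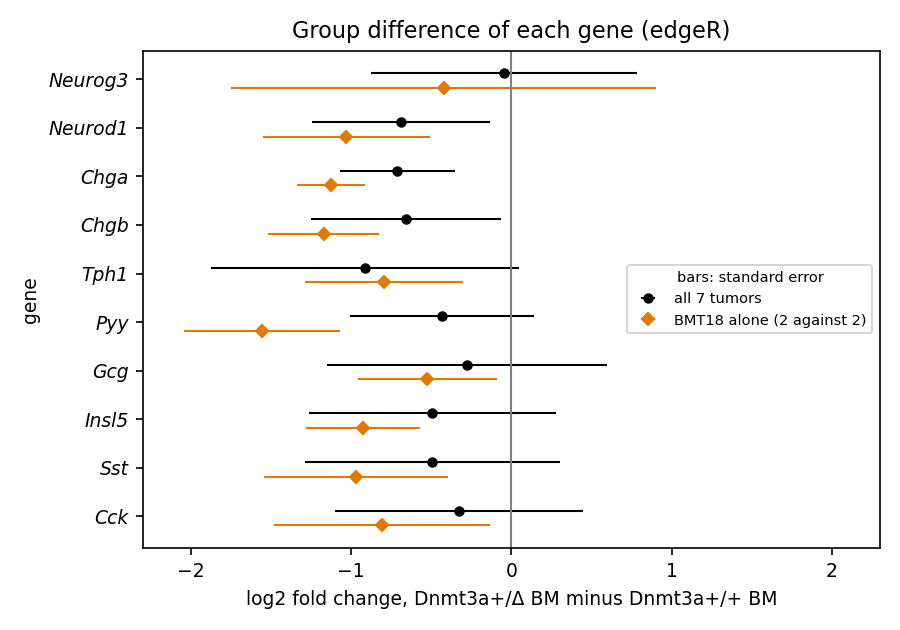
Log2 fold change of each enteroendocrine gene, Dnmt3a+/Δ BM minus Dnmt3a+/+ BM, by edgeR, with bars of 1 standard error, for all 7 tumors (black) and for the 4 tumors of BMT18 alone (orange). All black points lie between -0.92 and -0.05, and the BMT18 points between -1.56 and -0.42.

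The 2 transplantation experiments gave opposite directions. Within BMT18 alone, all 10 genes were lower with Dnmt3a+/Δ BM, where the median log2 difference of all genes tested was 0.024. For 7 of the 10 (Neurod1, Chga, Chgb, Tph1, Pyy, Insl5 and Sst) both Dnmt3a+/Δ tumors were below both control tumors, which was so for 26.2% of all genes tested. Chga was lower by a log2 fold change of -1.13 ± 0.21 with an unadjusted p of 0.00554, Chgb by -1.17 ± 0.35 with a p of 0.0267, and Pyy by -1.56 ± 0.49 with a p of 0.0317. The adjusted p was 0.492 for each of the 3 by edgeR, and 5.88% of all genes had an unadjusted p under 0.05 in this direction. Within BMT8, where control tumor 3 stood alone, all 10 fitted differences were above 0, from 0.39 for Chga to 2.45 for Insl5. Control tumor 3 was below the mean over the 7 tumors for all 10 genes, so these directions restate that 1 tumor. The share of all genes above 0 within BMT8 was not computed.

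The difference between the experiments in the effect of the graft was tested as an interaction in edgeR. Control tumor 3 was the only control of BMT8, so the fit took its spread from the other groups, and its low values were known when the contrast was made. Of the 10 genes, 5 had an unadjusted p under 0.05, against 4.62% of all genes tested: Pyy at 0.0188, Insl5 at 0.0212, Chga at 0.0306, Chgb at 0.0313 and Sst at 0.0442. None of these passed adjustment, since the lowest adjusted p over all 15810 genes was 1. The opposite directions rest on control tumor 3. Without that tumor, Chga differed by -1.03 and Chgb by -1.11 on the log2 scale. Both had an unadjusted p under 0.05 by edgeR, 2 of 10, against 6.19% of all genes in that direction. That tumor was singled out here for its low values, so leaving it out lowers the differences, and the 2 of 10 are no support for one. With any other single tumor left out, 0 of the genes had such a p.

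Between the experiments themselves, with the graft held in the model, only Tph1 among the 10 reached an unadjusted p under 0.05, against 19.4% of all genes in either direction and 8.59% lower in BMT8. Tph1 was lower in BMT8 by a log2 difference of -2.40 ± 0.75, with an adjusted p of 0.201 by edgeR. DESeq2 gave the same difference an adjusted p of 0.0165 and called Tph1 as 1 of 510 genes (2.09%), where edgeR called 1 gene (0.00633%) and none of the 10. The other 9 ranged from -1.49 for Gcg to 0.34 for Pyy, and the median over the 10 was -0.87. This median rested on single tumors, being -0.032 without control tumor 3 and -1.88 without Dnmt3a+/Δ tumor 3. Dnmt3a+/Δ tumor 3, also of BMT8, was above the mean for 8 of the 10 genes.

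Hormones of the same cell type did not keep a fixed proportion. The count ratio of Insl5 to Gcg varied little in 6 tumors, at 3.05, 2.32 and 2.38 in control tumors 1 to 3 and at 1.93, 2.03 and 2.33 in Dnmt3a+/Δ tumors 1 to 3, and it was 4.82 in Dnmt3a+/Δ tumor 4. The ratio of Pyy to Gcg was far wider, at 6.66, 8.34 and 28.8 in control tumors 1 to 3 and at 6.65, 1.99, 5.14 and 75.3 in Dnmt3a+/Δ tumors 1 to 4. The highest ratios were in the tumors lowest in Gcg, control tumor 3 and Dnmt3a+/Δ tumor 4. Gcg is the divisor, so a low Gcg raises this ratio by itself, and in these tumors it rested on 21 and 28 counts. In Dnmt3a+/Δ tumor 4 the high ratio came with a high Pyy level, and in control tumor 3 with a Pyy level that was low among controls.

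Against the general marker Chga, Pyy stayed within 1.09 to 2.53 in 6 tumors and was 5.96 in Dnmt3a+/Δ tumor 4. Tph1 per Chga was 0.192, 0.103 and 0.0301 in control tumors 1 to 3 and 0.148, 0.224, 0.061 and 0.0198 in Dnmt3a+/Δ tumors 1 to 4. As with the Tph1 level, the 3 tumors of BMT8 had the lowest ratios. How often other genes part by experiment in this way was not computed.

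**Figure D4:**
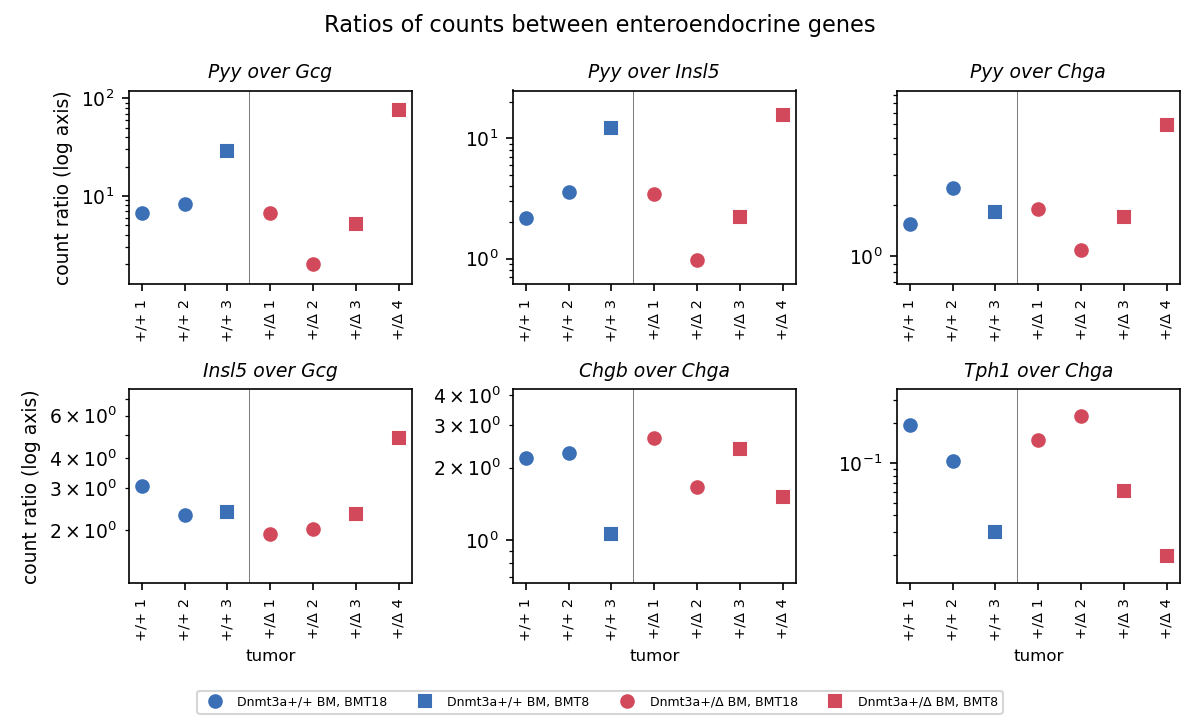
Ratios of estimated counts between pairs of enteroendocrine genes in each tumor, on log axes, with circles for BMT18, squares for BMT8, blue for Dnmt3a+/+ BM and red for Dnmt3a+/Δ BM. Dnmt3a+/Δ tumor 4 is the highest tumor for Pyy over Gcg (75.3), Pyy over Insl5 (15.6), Pyy over Chga (5.96) and Insl5 over Gcg (4.82).

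Markers of other cells of the gut wall moved with the enteroendocrine genes in part. The 10 genes summed to 147, 186 and 42.5 CPM in control tumors 1 to 3 and to 83.7, 61.1, 109 and 86.7 CPM in Dnmt3a+/Δ tumors 1 to 4. This sum was lowest in control tumor 3 and Dnmt3a+/Δ tumor 2, and that of Dnmt3a+/Δ tumor 4 held 57.0 CPM of Pyy. Goblet cells are the mucus-secreting cells of the same secretory branch. Their 7 markers summed to 2939, 3864 and 1185 CPM in control tumors 1 to 3 and to 1530, 2174, 2053 and 489 CPM in Dnmt3a+/Δ tumors 1 to 4. The goblet sum was thus lowest in Dnmt3a+/Δ tumor 4 and control tumor 3, of which only control tumor 3 was shared with the enteroendocrine sum. All 7 goblet markers had a fitted difference below 0, and none was called by edgeR or DESeq2. Absorptive colonocyte markers summed to 718, 777 and 452 CPM in control tumors 1 to 3 and to 257, 331, 397 and 454 CPM in Dnmt3a+/Δ tumors 1 to 4. Car1 made up 131 of the 257 CPM in Dnmt3a+/Δ tumor 1. Its share was larger in control tumor 3, at 341 of 452 CPM, and in Dnmt3a+/Δ tumor 4, at 350.0 of 454 CPM. Some other colonocyte markers were lowest in control tumor 3 and Dnmt3a+/Δ tumor 4, as 8 of the 10 enteroendocrine genes were. Slc26a3 was at 2.14 and 17.4 CPM there against 24.9 to 145 CPM elsewhere, and Car4 at 3.52 and 4.52 CPM against 25.6 to 164 CPM. Guca2b went the other way, as Car1 did, and was highest in these 2 tumors, at 29.79 and 26.25 CPM against 5.48 to 16.51 CPM. The lowest pair of tumors was this one for 4 of 8 colonocyte markers and for 4 of 7 goblet markers. It was so for 2 of 6 smooth muscle markers, 0 of 12 colon epithelium markers and 12.7% of all genes tested. Among the 33 further enteroendocrine genes tested, described below, it was so for 6. The pair was picked from the values of the 10 enteroendocrine genes.

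The summed markers of colon epithelium as a whole were highest in control tumor 3, at 39870 CPM, where the enteroendocrine genes were lowest, and ran from 11370 to 26550 CPM in the other 6 tumors. Smooth muscle markers were at 18.4 CPM in control tumor 3 and between 175 and 861 CPM in the others. In Dnmt3a+/Δ tumor 2, the lowest for Pyy and Neurog3, Hoxd13, which marks the distal hindgut, was at 0.0815 CPM, while in the other 6 tumors it was between 91.2 and 169 CPM. Hoxd10, Hoxd11 and Hoxd12 were likewise at or near 0 in that tumor. The 2 other genes of that list were not near 0: Hoxb13, its highest, was at 240.2 CPM in that tumor, within the 163 to 406 CPM of the others, and Hoxa13 was lowest there at 15.0 CPM. The fibroblast sum was 993 CPM in Dnmt3a+/Δ tumor 2 and 149 to 355 CPM elsewhere. The part of goblet, colonocyte, epithelial, muscle and stromal content or of position along the colon in the enteroendocrine levels was not tested.

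Chga and Chgb are also made by enteric neurons. Of their defining markers, Elavl4 was at 0 to 0.297 CPM. The 12 neuron markers summed to 21.2 to 54.5 CPM in control tumors and to 43.5 to 52.8 CPM in Dnmt3a+/Δ tumors. Stmn2 and Ret made up most of these sums and went opposite ways. Stmn2 differed by -1.17 ± 0.84 on the log2 scale, with an adjusted p of 0.633 by edgeR. Ret differed by 2.03 ± 0.40, with an adjusted p of 0.361 by edgeR and 0.000363 by DESeq2, which called it. All Dnmt3a+/Δ tumors were above all controls for Ret, as for 6.12% of all genes. Of 8 neuron markers tested, 6 were above 0 and 2 below, with a median of 0.93. The 5 markers of enteric glia summed to 0.673 to 1.45 CPM over all 7 tumors.

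**Figure D5:**
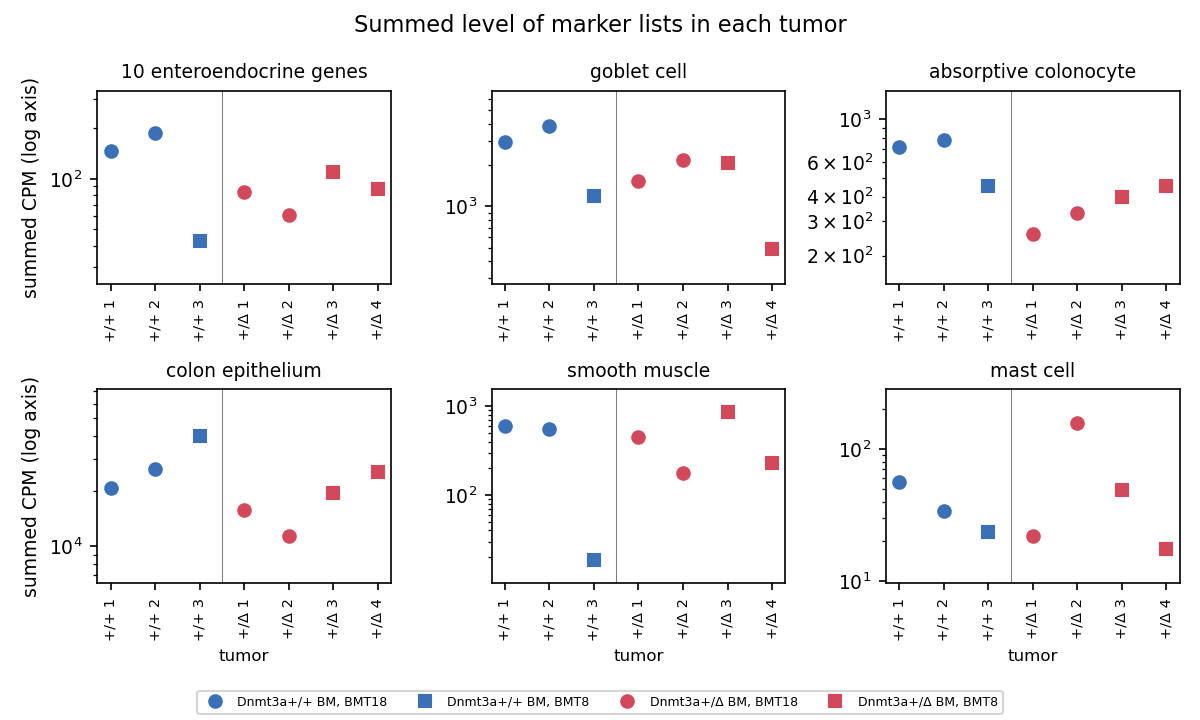
Summed CPM of the 10 enteroendocrine genes and of 5 lists of markers of other cells, in each tumor on log axes, with circles for BMT18, squares for BMT8, blue for Dnmt3a+/+ BM and red for Dnmt3a+/Δ BM. Control tumor 3 is lowest for the enteroendocrine genes (42.5 CPM) and smooth muscle (18.4 CPM) and highest for colon epithelium (39870 CPM).

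Among 46 further genes of enteroendocrine cells, 33 were tested. Of these, 12 had a fitted difference above 0 and 21 below 0, with a median of -0.56 on the log2 scale, against 0.0025 over all genes. At an unadjusted p under 0.05, 2 were higher and 4 lower, where 5.83% of all genes were higher and 5.2% lower. edgeR called none, and its lowest adjusted p over all genes was 0.361. DESeq2 called 3, Cadps and Slc18a1 as higher and Maoa as lower, where it called 1.01% of all genes as higher and 0.233% as lower.

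Slc18a1, the transporter VMAT1 that loads serotonin into enterochromaffin granules, was at 7.98, 9.34 and 8.81 CPM in control tumors 1 to 3 and at 11.7, 59.2, 32.7 and 32.2 CPM in Dnmt3a+/Δ tumors 1 to 4. All Dnmt3a+/Δ tumors were above all controls, as for 6.12% of all genes tested. The log2 difference was 1.96 ± 0.49, with an adjusted p of 0.361 by edgeR and 0.00596 by DESeq2. In Dnmt3a+/Δ tumor 4, where Slc18a1 was at 32.2 CPM, Tph1 was at its lowest, 0.189 CPM.

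Cadps, a protein that primes dense-core granules for release, was at 2.88, 1.36 and 0.826 CPM in control tumors 1 to 3 and at 5.12, 19.0, 13.9 and 10.3 CPM in Dnmt3a+/Δ tumors 1 to 4. All Dnmt3a+/Δ tumors were above all controls, which was so for 6.12% of all genes tested. Between the groups the log2 difference was 2.84 ± 0.60, with an adjusted p of 0.361 by edgeR and 0.000137 by DESeq2.

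Of the other genes of amine handling, Maoa, which breaks serotonin down, was at 375, 445 and 223 CPM in control tumors 1 to 3 and at 179, 101, 182 and 133 CPM in Dnmt3a+/Δ tumors 1 to 4. Every Dnmt3a+/Δ tumor was below every control tumor, which was so for 6.32% of all genes. On the log2 scale the difference was -1.22 ± 0.30, with an adjusted p of 0.361 by edgeR and 0.0296 by DESeq2. Ddc, which makes serotonin from the product of Tph1, differed by -0.84 ± 0.30 and Gch1, which makes the cofactor of Tph1, by -0.81 ± 0.33, both at an unadjusted p under 0.05 and with adjusted p of 0.406 and 0.433 by edgeR. Maoa, Ddc and Gch1 are also expressed by other epithelial cells.

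Of the other hormones, Tac1, which encodes substance P, was at 17.4, 21.2 and 14.4 CPM in control tumors 1 to 3 and at 8.66, 9.47, 8.04 and 10.0 CPM in Dnmt3a+/Δ tumors 1 to 4. All Dnmt3a+/Δ tumors were below all controls, control tumor 3 included, which was so for 6.32% of all genes tested. The log2 difference was -0.97 ± 0.21, with an adjusted p of 0.361 by edgeR and 0.00402 by DESeq2, short of the fold change asked for a call. Sct, Nts and Iapp differed by -0.82 ± 0.54, 0.52 ± 0.78 and -0.50 ± 0.81, with adjusted p of 0.598 or more by edgeR. Gip and Gast, hormones of the upper gut, were at 0 counts in all 7 tumors.

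No factor of the enteroendocrine lineage passed the test in the wider lists. Insm1, a zinc-finger factor of endocrine differentiation, was at 1.08, 1.02 and 0.52 CPM in control tumors 1 to 3 and at 0.624, 0.306, 0.589 and 0.379 CPM in Dnmt3a+/Δ tumors 1 to 4. Its log2 difference was -0.88 ± 0.46, with an adjusted p of 0.521 by edgeR. Hhex, a factor of D cells, differed by -0.73 ± 0.34 with an adjusted p of 0.481. Atoh1, which opens the whole secretory branch, differed by -0.60 ± 0.74 with an adjusted p of 0.813 by edgeR. The Notch genes that hold cells back from that branch gave 4 differences above 0 and 3 below 0, and the target Hes1 differed by -0.42 ± 0.29 with an adjusted p of 0.62.

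Of the other granule and processing genes, Scg5, a chaperone of the prohormone convertase PC2, differed by -1.13 ± 0.64 and Pcsk1n, an inhibitor of PC1, by -0.99 ± 0.57, with adjusted p of 0.543 and 0.551 by edgeR. Cpe, which trims prohormones, differed by -0.12 ± 0.83 and Pam, which amidates them, by 0.20 ± 0.22. The granule list as a whole had 5 of 14 tested genes above 0 and 9 below 0.

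Sensors and hormone receptors, the genes through which these cells are driven and through which their hormones act, gave no common direction, with 6 above 0 and 5 below 0 among 11 tested of 26. Npy4r, a receptor of the PYY family, was at 1.21, 1.08 and 0.887 CPM in control tumors 1 to 3 and at 1.97, 2.87, 2.76 and 2.68 CPM in Dnmt3a+/Δ tumors 1 to 4. Npy2r, the receptor of the shortened form of PYY, was at 1.05, 1.33 and 0.245 CPM in control tumors 1 to 3 and at 1.72, 4.46, 3.96 and 3.76 CPM in Dnmt3a+/Δ tumors 1 to 4. For both, all Dnmt3a+/Δ tumors were above all controls, which was so for 6.12% of all genes tested. They were the only 2 of the 11 tested, and Pyy itself had overlapping groups. The log2 differences were 1.28 ± 0.34 for Npy4r and 1.98 ± 0.63 for Npy2r, with adjusted p of 0.361 and 0.391 by edgeR and of 0.00501 and 0.0358 by DESeq2. Ffar4 and Ffar2, fatty acid receptors of L cells, differed by -0.47 ± 0.48 and 0.06 ± 0.47, and Ffar1 was at 0 counts in all 7 tumors.

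The genes whose log2 CPM followed Chga most closely over the 7 tumors, outside all lists used here, were Tldc2 with a Pearson r of 0.993, Slc26a2 with 0.990, Mep1a with 0.989, Akr1c13 with 0.983 and March8 with 0.982. Among the 10 genes, Neurod1 was the nearest to Chga with an r of 0.959, rank 45 of 15809, then Chgb with 0.929. Pyy with 0.531 and Neurog3 with 0.395 were the farthest. These are descriptions over 7 libraries that share group and experiment differences, and 1.64% of all genes tested had an r over 0.9 with Chga.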

How the data were processed

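Per the labels and the study's methods, poly(A) RNA of each tumor was made into directional libraries and sequenced paired-end, and reads were trimmed with Trimmomatic, aligned to mm10 with STAR 2.7.3a and quantified with RSEM v1.2.31. The authors deposited RSEM estimated counts per gene, already whole numbers and not normalized. RSEM shares reads that fit several genes among them by likelihood, so overlapping or similar genes are uncertain. Of the identifiers, 42462 were given a symbol from GENCODE M21, and genes without one held 0.104% of counts. Of 176 list genes, 175 matched.

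The members and all lists were chosen with earlier results of these data known. Groups were tested on the deposited counts in edgeR 4.0.16 (R 4.3.3) with filterByExpr, TMM scaling, the quasi-likelihood F test and Benjamini-Hochberg adjustment over 15810 genes; a call needed an adjusted p under 0.05 and a log2 fold change over 1 in either direction. Experiment and interaction terms were tested over all 7 tumors. DESeq2 1.42.0, which the study used, was an alternative, with other scalings, filters, the experiment as a covariate, BMT18 alone and each tumor left out. Log2 CPM had a prior count of 2. Scripts were tested on simulated data. Depth was 38472738 to 64314999 counts per tumor. Intervals are 95% intervals of the fit. The text names all members, Dnmt3a and the 5 genes most like Chga. Of each other list it could name up to 4 genes of lowest unadjusted p and the 2 of highest CPM. Genes at 0 in every tumor could also be named, and a selection of all these is printed. Elavl4, Iapp, Hoxd13, Slc26a3, Car4 and Guca2b were named as defining markers or after their values were seen. Sequences are from RefSeq (GRCm38.p6), in which all 10 members had a promoter entry. Of 3 same-numbered pairs of tumors, 1 deviated together, so the numbers were not taken to pair the tumors.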

Additional observations from a re-analysis of the deposited data

Results flagged for a closer look

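Within the 4 tumors of mice with Dnmt3a+/Δ BM, 38 levels and ratios, not log transformed, were examined for a tumor that stood apart by Dixon's criterion. It flagged 5. Chance gives about 1.9, or about 5% of groups, only for independent values with a normal distribution. CPM sums and count ratios are skewed, so the 5 cannot be read as an excess over that number. Of the 5, 4 were ratios in Dnmt3a+/Δ tumor 4, which are not independent because they share Pyy or Gcg: 75.3 for Pyy over Gcg, 15.6 for Pyy over Insl5, 5.96 for Pyy over Chga and 4.82 for Insl5 over Gcg. Control tumor 3, for which the group of 3 was too small to be examined, also had high ratios of Pyy to Gcg (28.8) and to Insl5 (12.1), but not of Pyy to Chga (1.82). The other was the summed fibroblast level of 993 CPM in Dnmt3a+/Δ tumor 2. No level of a single enteroendocrine gene stood apart in this way.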

How the results depend on the processing

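No enteroendocrine gene was called between the grafts under any alternative: 0 of 97 values with other settings and 0 of 68 with a tumor left out, of which 14 and 7 turned direction. DESeq2 called 299 genes of the table. Neurog3 turned to 0.10 on the log2 scale with library size scaling alone, under which the all-gene median was 0.21. With the experiment as a covariate, Gcg became 0.39, Insl5 0.13, Sst 0.023 and Cck 0.13. Relative to colon epithelium markers, Neurog3 was 0.39 and Gcg 0.18, both under the all-gene median of 0.48 in that scaling. Same-numbered tumors correlated at 0.568, 0.071 and -0.038, so their numbers pair nothing; the fit with the replicate block, on replicates 1 to 3, gave Neurog3 0.0043, Gcg 0.49, Insl5 0.17, Sst 0.054 and Cck 0.27, and the same tumors without the block, an alternative chosen after seeing the data, gave Neurog3 0.10 and Gcg 0.068. Leaving out each tumor moved Neurog3 from -0.36 to 0.70, Pyy from -0.93 to 0.11, Gcg from -0.78 to 0.32 and Cck from -0.83 to 0.66, while the other 6 stayed below 0. For the experiments, DESeq2 called 510 genes, 1 of them a member, no filter gave 14 genes, and leaving out each tumor gave 0 to 72. The members' median between experiments ran from -1.88 without Dnmt3a+/Δ tumor 3 to -0.032 without control tumor 3. Without Dnmt3a+/Δ tumor 1, without Dnmt3a+/Δ tumor 3 and at a CPM of at least 1 some members were too low to be tested. Neurog3 at 1 to 19 counts, Cck at 3 to 48 and Sst at 4 to 95 are limited by depth, and Dnmt3a+/+ in BMT8 by a single tumor. The causes of these changes were not tested.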
